A study of Mus musculus with 69 samples.

Results

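Loss of Tlr7 was examined in male primary microglia that had received myelin. The comparison holds 6 libraries, 3 labelled Tlr7 knockout (KO) and 3 labelled wild type (WT), out of 24 microglia libraries and 69 libraries in the series, and they were chosen by their labels for sex, treatment and genotype. All genes with enough counts were included, which left 14468 of 54532 genes. The study asks how Tlr7 contributes to differences between the sexes in demyelination.

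The KO libraries carry the genotype label TLR7:-/- and the WT libraries the label WT. Both groups are male primary microglia from pups of postnatal day 1 to 3, both received myelin, and their RNA is labelled nuclear. The QuantSeq 3′ forward kit was used, which reads the end of polyadenylated transcripts. The part of the gene that was deleted, the strain, the number of pups and cultures behind each library, whether WT pups were littermates of the KO pups, and the dose and duration of myelin were not found in the labels. Replicates may therefore be technical, and the p-values measure only the spread between these libraries.

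TLR7 is a receptor in the endosomal membrane of microglia and other phagocytes that binds single-stranded RNA and signals through the adaptor MyD88 to NF-kB and to interferon regulatory factors such as IRF7. Type I interferon made in response acts on its receptor, and a factor that contains STAT2 and IRF9 then drives interferon-stimulated genes through a promoter element called the ISRE. Microglia also take up myelin debris, digest it in lysosomes and store its cholesterol in lipid droplets.

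Tlr7 (ENSMUSG00000044583, GRCm38, chrX:167304929-167330558, minus strand) stood at 1.71, 1.25 and 1.77 CPM (counts scaled to a common library size) in KO libraries, against 177, 176 and 174 CPM in WT libraries. The groups lay far apart, with a log2 fold change of -6.79 (adjusted p = 1.67e-52), which matched the genotype labels. Reads from a 3′ kit can lie outside a deleted part, so this level shows less transcript and not which exons were lost. Markers of microglia and macrophages were abundant in all libraries, and the 15 genes of that list summed to 13047 to 13136 CPM in KO and 12253 to 12569 CPM in WT libraries. The Y-linked gene Ddx3y, at 72.2, 76.5 and 79.5 CPM in KO and 74.7, 75.3 and 83.1 CPM in WT libraries, matched the male label. Of the other Y-linked genes, Kdm5d and Uty overlapped between groups, and Eif2s3y was lower in KO, at 43.3, 46.5 and 46.2 CPM in KO and 54.4, 58.9 and 57.8 CPM in WT libraries (-0.33 ± 0.07, adjusted p = 2.75e-04). Xist, the RNA of the inactive X chromosome, was at 1.16, 1.25 and 1.52 CPM in KO libraries and at 0.0650, 0.125 and 0.0627 CPM in WT libraries, where 3 counts correspond to 0.188 to 0.195 CPM, a floor that covers counting error only. It was called higher in KO (adjusted p = 0.0016). Total counts were 15.28, 17.57 and 21.28 M in KO libraries and 15.49, 15.89 and 16.01 M in WT libraries. Among the other microglia groups, replicate 1 of female KO stood apart from the other female KO libraries in both treatments, with positions of 27.5 with myelin and 21.1 with DMSO on the second principal component, where those others lay between -13.7 and -1.58.

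Type I interferon response genes, which make cells resistant to virus, were lower in male KO microglia. Of 68 such genes tested, 65 fell in KO, none rose, and the median log2 fold change was -1.16, where the median of all genes was -0.00. Over all genes, 20.6% were called (an adjusted p under 0.05 in edgeR's quasi-likelihood test) and 10.6% were called lower. KO levels lay below all WT levels in 66 of the 68, against 17.5% of all genes. Some of the 65 calls were weak, and that of Slfn5 ended in every fit that left out libraries (adjusted p = 0.0555 to 0.145). In bulk RNA, fewer cells of a type and less RNA per cell cannot be told apart.

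The promoters of several of these genes are shown because they carry the sequence element of the pathway. The ISRE was searched as GAAANNGAAA or, on the other strand, TTTCNNTTTC, in the 250 bases before the RefSeq start of each gene (GRCm38.p6), with overlapping matches counted. It was present in 26 of 53 matched interferon genes (49.1%), in 345 of 10345 matched tested genes (3.33%) and in 978 of all 32851 promoter windows (2.98%). Each stretch below is written 5′ to 3′ on the gene's strand with the matches in capitals.
Ifit3, chr19:34583353-34583436, plus strand: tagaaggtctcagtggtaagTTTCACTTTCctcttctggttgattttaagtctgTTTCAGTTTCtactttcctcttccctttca
Isg15, chr4:156200851-156200920, minus strand: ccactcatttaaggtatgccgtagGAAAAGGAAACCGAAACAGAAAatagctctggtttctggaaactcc
Oas3, chr5:120777695-120777764, minus strand: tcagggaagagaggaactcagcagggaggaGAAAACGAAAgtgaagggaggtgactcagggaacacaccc
Rsad2, chr12:26456533-26456602, minus strand: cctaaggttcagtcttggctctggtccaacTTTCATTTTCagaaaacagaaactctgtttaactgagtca
Bst2, chr8:71537560-71537629, minus strand: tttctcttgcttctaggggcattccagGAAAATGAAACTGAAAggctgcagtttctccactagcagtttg
Cxcl10, chr5:92349063-92349132, minus strand: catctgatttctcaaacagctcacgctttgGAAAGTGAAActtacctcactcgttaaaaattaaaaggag
Ifit3 held 2 separate matches, at 156 and 122 bases before its start, and Isg15 held 3 that overlap, from 78 to 66 bases before it. Bst2 held 2 overlapping matches at 130 and 124 bases, and Oas3, Rsad2 and Cxcl10 held 1 each, at 75, 120 and 213 bases. A match is a description of the letters and not of a bound site or a cause. Irf7 and Cmpk2 had no match in this window, and the values of Irf7 are given below with those of the genes shown. Cmpk2, a mitochondrial nucleotide kinase gene, was at 25.1, 22.6 and 19.4 CPM in KO and 92.8, 63.5 and 76.1 CPM in WT libraries, without overlap (-1.80 ± 0.33, adjusted p = 6.53e-04).

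Of 8 transcription factor genes of the interferon pathway, 7 fell, with a median of -0.57. Irf7, which amplifies interferon production downstream of TLR7, stood at 52.2, 48.3 and 42.4 CPM in KO and 217, 166 and 188 CPM in WT libraries. Each WT library lay far above each KO library, and the mean was 47.6 ± 4.96 CPM in KO against 190.4 ± 26.00 CPM in WT (SD, n = 3 each). Stat2, a subunit of the factor that binds the ISRE, was at 88.1, 91.1 and 80.8 CPM in KO and 208, 183 and 196 CPM in WT libraries (log2 fold change -1.18 ± 0.22, SE, adjusted p = 7.77e-04). Irf9, its DNA-binding subunit, was at -0.41 (adjusted p = 0.0226). Irf1, an interferon-induced factor, fell by 0.72 on the log2 scale (adjusted p = 1.38e-09), and Irf5, another factor downstream of TLR7, was at -0.28 (adjusted p = 9.96e-09). The call of Irf9 ended without KO replicate 1 (adjusted p = 0.0526), KO replicate 3 (0.106) or WT replicate 1 (0.0709). That of Irf8 (-0.09), another of the 7, ended in every fit that left out libraries (adjusted p = 0.0528 to 0.334). Irf3, which acts mainly downstream of cytosolic sensors and TLR3, did not pass (-0.16 ± 0.06, adjusted p = 0.0698), and its groups overlapped.

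All 34 antiviral effector genes tested fell, with a median of -1.42 and no overlap between groups in any of them. Ifit3, an RNA-binding translation inhibitor, was at 21.7, 16.9 and 14.1 CPM in KO and 120.0, 81.7 and 91.9 CPM in WT libraries. Its WT library 1 was the highest of the 6, and the groups were far apart, as in the plot of interferon genes by library. Oas3, which makes the activator of the nuclease RNase L, was at 18.4, 16.4 and 14.1 CPM in KO and 95.9, 79.6 and 86.9 CPM in WT libraries (-2.43 ± 0.43, adjusted p = 4.81e-04). Isg15, a ubiquitin-like modifier, was at 15.8, 17.3 and 14.5 CPM in KO and 67.3, 54.6 and 63.3 CPM in WT libraries (-1.96 ± 0.39, adjusted p = 0.00126). Rsad2, which encodes viperin, was at 38.9, 35.1 and 28.9 CPM in KO and 176, 118 and 149 CPM in WT libraries. In each of these genes WT library 1 was the highest of the 6. Mx1, a dynamin-like antiviral GTPase, changed by -2.37 ± 0.39 (adjusted p = 2.29e-04), and Oasl1, which in mouse limits Irf7 translation, by -2.66 ± 0.44 (adjusted p = 2.32e-04). The smallest changes of the effectors were those of Trim25, a ubiquitin ligase that activates the RNA sensor RIG-I, at -0.48 ± 0.05 (adjusted p = 1.33e-07), and of Lgals3bp, a secreted glycoprotein, at -0.56 ± 0.15. Bst2, which tethers budding virus to the cell, was abundant in both groups, at 347, 329 and 299 CPM in KO and 523, 476 and 501 CPM in WT libraries. The call of Bst2 ended without KO replicate 2 (adjusted p = 0.0663), KO replicate 3 (0.101), WT replicate 1 (0.0748) or WT replicate 3 (0.0585), that of Lgals3bp without KO replicate 3 (0.0668) or WT replicate 1 (0.0542), and that of Oas1a without KO replicate 3 (0.0537). Reads of near-identical copies cannot be assigned with certainty, which touches Ifit3 with Ifit3b (-2.30) and Oas1a (-0.74) with Oas1g (-1.35).

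**Figure D1:**
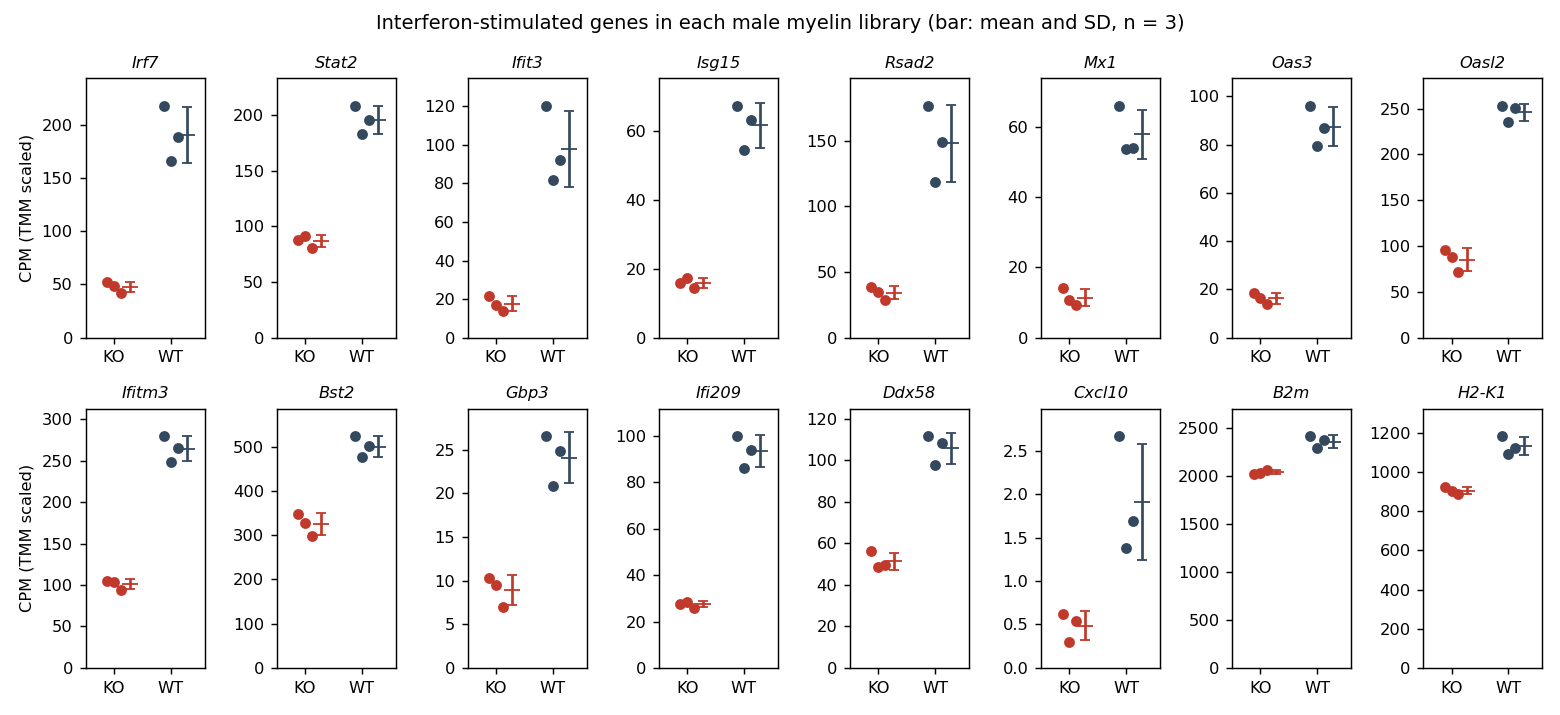
Levels of interferon genes in CPM (y axis, from 0) in each of the 3 male KO and 3 male WT libraries with myelin (points), with group means. The KO libraries lay below all WT libraries in each gene drawn, for example Irf7 at 47.6 ± 4.96 CPM in KO against 190.4 ± 26.00 CPM in WT.

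The interferon-induced GTPases, which attack vacuoles that hold pathogens, fell in 10 of 10 genes with a median of -1.15. Gbp5 was at 2.19, 1.55 and 1.97 CPM in KO and 10.4, 6.69 and 7.84 CPM in WT libraries (-2.13 ± 0.28, adjusted p = 4.06e-06). Gbp2 (-1.35), Gbp3 (-1.45), Irgm2 (-0.96) and Igtp (-0.87) fell as well, and copies of the Gbp family are similar enough that their reads are not certain to be apart. Of 14 nucleic acid sensor genes and their relatives, 12 fell with a median of -0.87. Ifi209, of the mouse family of DNA-binding p200 proteins, stood at 27.7, 28.5 and 26.04 CPM in KO and 99.8, 86.1 and 94.2 CPM in WT libraries, with no overlap (-1.77 ± 0.27, adjusted p = 1.09e-04). Ddx58, which encodes RIG-I, and Ifih1, which encodes MDA5, changed by -1.04 ± 0.20 and -0.89 ± 0.14 (adjusted p = 0.00104 and 2.22e-04). The DNA sensor gene Mb21d1, which encodes cGAS, was at -0.27 ± 0.12 (adjusted p = 0.0849) and Tmem173, which encodes its adaptor STING, at -0.01 ± 0.07 (adjusted p = 0.959), and neither passed. Both chemokines of the list fell, the monocyte attractant Ccl12 at -1.84 ± 0.20 (adjusted p = 4.98e-07) and the T-cell attractant Cxcl10 at -1.97 ± 0.45 (adjusted p = 7.63e-04). Cxcl10 was low throughout, at 0.615, 0.297 and 0.540 CPM in KO and 2.66, 1.375 and 1.69 CPM in WT libraries. Interferon beta itself was at the edge of detection, since Ifnb1 had at most 1 count in any of the 6 libraries and was not tested.

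Markers of other brain cell types moved with genotype in the same libraries. The 9 choroid plexus and ependymal markers tested summed to 10.5 to 21.7 CPM in KO and 196 to 269.6 CPM in WT libraries, without overlap. Of 10 oligodendrocyte precursor markers 7 fell and 1 rose (median -1.01), although their sum, 159 to 176 CPM in KO and 169 to 184 CPM in WT libraries, overlapped between groups. With the levels of Ttr and Pdgfra, 1 marker of each type, as covariates in the fit, the interferon median was -1.20 and 68 of 68 genes were negative, but 3 genes passed in place of 65. The part of those cells in the result was not tested.

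A few genes near Tlr7 on the X chromosome fell far. Within 10 Mb of Tlr7, 46 other genes were tested and 12 were called (26.1%), 6 higher and 6 lower, against 88 of 429 (20.5%) on the rest of the X and 20.6% of all genes. Mid1 (GRCm38, chrX:169685199-170005736, plus strand), a microtubule-associated ubiquitin ligase gene that spans the pseudoautosomal boundary in mouse, lies 2355 kb away. It was at 0.752, 1.13 and 0.786 CPM in KO and 7.54, 10.9 and 10.4 CPM in WT libraries, with the WT levels all several times the KO levels (-3.43 ± 0.22, adjusted p = 6.38e-19). The unnamed transcript G530011O06Rik was at 0.342, 0.416 and 0.246 CPM in KO and 11.6, 11.4 and 12.5 CPM in WT libraries (-5.14 ± 0.24). The predicted genes Gm15726 (-5.06) and Gm15247 (-1.30) fell too, and overlap with neighbouring transcripts leaves the origin of their reads uncertain. The call of Gm15247 ended without KO replicate 1 (adjusted p = 0.143), KO replicate 2 (0.0749) or WT replicate 2 (0.199).

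Tlr8, the neighbour and closest relative of Tlr7, was at 69.9, 83.2 and 77.7 CPM in KO and 90.3, 89.9 and 92.9 CPM in WT libraries, a small fall without overlap (-0.24 ± 0.05, adjusted p = 3.47e-04). Gpm6b, a membrane proteolipid gene of neurons and glia, fell by 0.72 on the log2 scale (adjusted p = 0.00498). Higher in KO were Car5b, a mitochondrial carbonic anhydrase gene, at 8.61, 8.27 and 9.43 CPM against 4.29, 3.25 and 4.20 CPM in WT libraries (1.17 ± 0.14), and Reps2, an endocytosis adaptor gene, at 0.67 ± 0.06 (adjusted p = 4.36e-12). Ap1s2 (0.30), Mospd2 (0.24), Prps2 (0.24) and Rps6ka3 (0.16) rose by less.

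**Figure D2:**
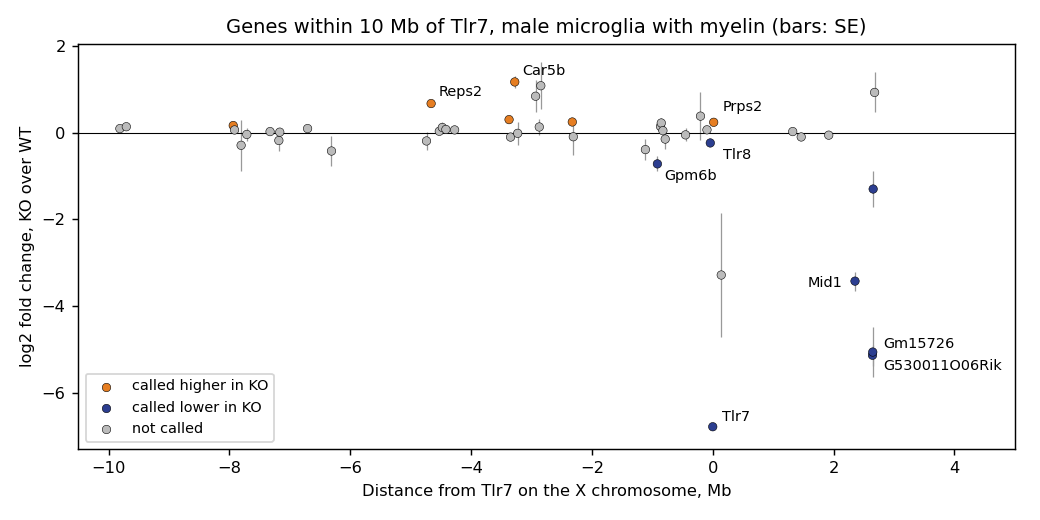
Log2 fold change of KO over WT in male microglia with myelin (y axis) against distance from Tlr7 in Mb (x axis) for the 47 tested genes within 10 Mb. Orange points are genes called higher, blue points genes called lower and grey points genes not called. Tlr7 (-6.79), G530011O06Rik (-5.14) and Mid1 (-3.43) are among the genes marked. The point near -3.29 is Frmpd4, which was not called (adjusted p = 0.117), and the lines are SE.

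Across all genes, 1457 were higher in KO (10.1%) and 1530 were lower (10.6%). The changes were unequal in size, with a median of 0.24 among the higher and -0.69 among the lower genes. A change of at least 1 on the log2 scale was seen in 49 higher genes (0.339%) and 582 lower genes (4.02%), of which 13 and 79 reached 10 CPM in the higher group. KO and WT libraries did not overlap in 34.5% of genes. Of the called genes 48.8% were higher, and when libraries were scaled by their totals alone this share was 27.4% (877 higher and 2322 lower), with a shift of the median of all genes to -0.06.

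**Figure D3:**
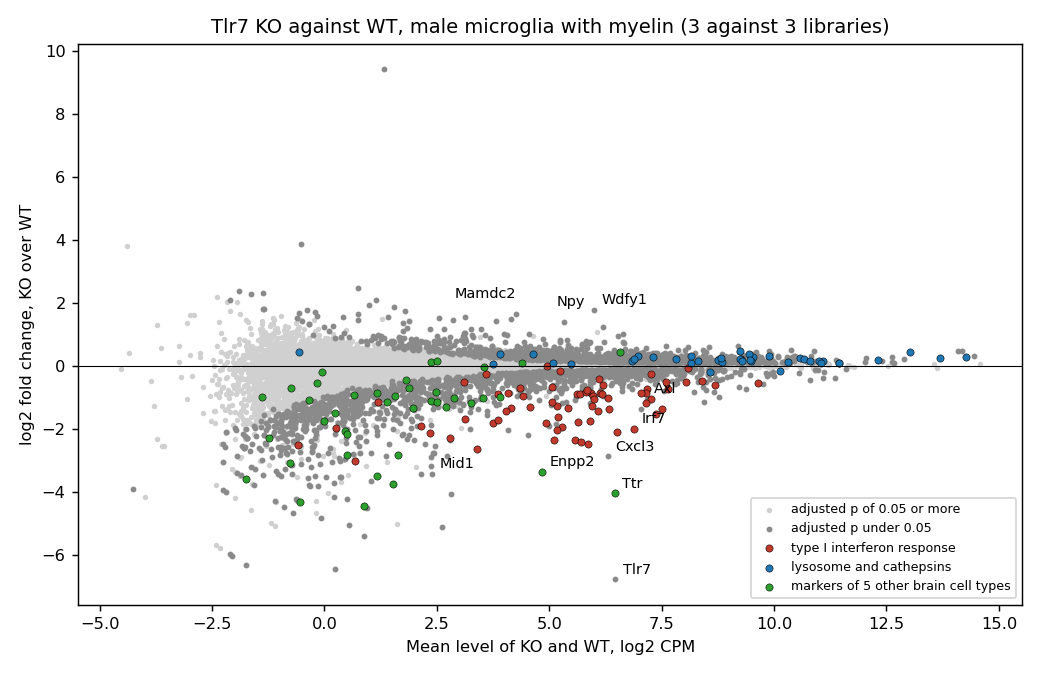
Log2 fold change of KO over WT (y axis) against the mean level of the 6 libraries in log2 CPM (x axis), 1 point per gene tested. Red interferon genes lie below 0 and most blue lysosomal genes slightly above it, and the highest point is Gm42031, which had no read in the WT libraries, so that its fitted value is not a bound.

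Genes that present peptide on MHC class I, many of them interferon targets, fell in 16 of 20 tested, none rose, and the median was -0.41. Tap1, a subunit of the peptide transporter, was at 48.03, 55.7 and 45.6 CPM in KO and 104, 91.8 and 95.7 CPM in WT libraries, without overlap (-0.97 ± 0.14, adjusted p = 7.00e-05). B2m, the light chain of class I molecules, was at 2022, 2039 and 2061 CPM in KO and 2416, 2291 and 2378 CPM in WT libraries (-0.21 ± 0.05, adjusted p = 0.00497). The immunoproteasome genes Psmb9 and Psmb8 fell, at -0.60 ± 0.09 and -0.40 ± 0.05, as did the class I heavy chain gene H2-K1, at -0.32 ± 0.05. H2-Q6 (-1.10), H2-Q7 (-0.76) and H2-Q4 (-0.73) are near-identical in sequence and their reads may be shared. With Ttr and Pdgfra as covariates 0 of the 20 passed. In that fit Tap1 was at -1.12 (adjusted p = 0.123), H2-Q6 at -1.30 (adjusted p = 0.126) and H2-Q7 at -0.62 (adjusted p = 0.576). Ttr itself did not overlap between the male groups, and the part of the other cell types in these changes was not tested. Of 9 class II and co-stimulation genes, 2 fell, the invariant chain gene Cd74 at 17.4, 18.7 and 16.5 CPM in KO and 39.1, 35.8 and 36.3 CPM in WT libraries (-1.08 ± 0.06) and the low-level H2-Aa (-1.81).

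Of 25 cytokine and chemokine genes, 15 fell and none rose, with a median of -0.29. Of 7 CXC chemokines 5 fell, namely Cxcl3, Cxcl2, Ppbp, Pf4 and Cxcl16. Cxcl3, a neutrophil attractant, was at 19.7, 18.6 and 19.2 CPM in KO and 158, 116 and 146 CPM in WT libraries. Its KO values lay close together and far below each WT value (-2.87 ± 0.15, adjusted p = 2.13e-10). Cxcl2, with the same receptor, was at 15.2, 12.97 and 12.4 CPM in KO and 54.7, 47.8 and 49.2 CPM in WT libraries (-1.91 ± 0.14, adjusted p = 1.27e-08), and Ppbp, a platelet-type chemokine, at 14.2, 14.3 and 17.1 CPM in KO and 53.4, 57.6 and 56.4 CPM in WT libraries (-1.86 ± 0.09). These groups did not overlap, and Cxcl1, another neutrophil attractant, was at 0.14 ± 0.25 and did not pass (adjusted p = 0.767).

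Among CC chemokines 7 of 9 fell. The monocyte attractants Ccl7 and Ccl2 changed by -1.377 ± 0.10 and -0.73 ± 0.06 (adjusted p = 2.19e-08 and 7.27e-08), with Ccl7 at 72.01, 78.7 and 69.5 CPM in KO and 185, 191 and 195 CPM in WT libraries. Ccl5, which attracts T cells and monocytes, changed by -1.17 ± 0.18, Ccl4, an attractant of monocytes, by -0.57 ± 0.10, and Ccl6 and Ccl9 by -0.46 and -0.38. Of 9 interleukin-1 and TNF family genes and related factors, 3 fell. Il1b, the proinflammatory cytokine, was at 2.12, 1.84 and 2.21 CPM in KO and 7.99, 5.38 and 5.39 CPM in WT libraries (-1.60 ± 0.25, adjusted p = 3.47e-06). The inflammasome sensor gene Nlrp3 was at -0.28 ± 0.07 and the macrophage growth factor gene Csf1 at -0.21 ± 0.04. Tnf was at -0.09 ± 0.08 (adjusted p = 0.538) and Il1a at -0.05 ± 0.06 (adjusted p = 0.585), with overlapping groups for Tnf. Il6 and Il10 had at most 4 and 2 counts in a library and were not tested. With the covariates, 9 cytokine genes passed in place of 15.

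Genes of NF-kB factors and their feedback inhibitors fell in 5 of 15 (median -0.09), where 10.6% of all genes were called lower. The call of Nfkb2 as lower ended without any 1 of the KO replicates, WT replicate 1 or 3, or female KO replicate 1 (adjusted p = 0.0594 to 0.172). The inhibitor genes Nfkbie and Nfkbia were at -0.63 ± 0.11 and -0.26 ± 0.05, and Birc3, an NF-kB target that restrains cell death, at -0.43 ± 0.07. The surface TLR list fell in 5 of 8 genes (median -0.22), led by Cd14, the lipopolysaccharide co-receptor, at 139, 134 and 139 CPM in KO and 254, 230.5 and 236 CPM in WT libraries (-0.80 ± 0.05, adjusted p = 4.57e-12). Tlr1 was at -0.45 ± 0.06 and Tlr4 at -0.20 ± 0.05, while the call of Tlr2 (-0.27) ended without KO replicate 2 (adjusted p = 0.0518), KO replicate 3 (0.0848) or WT replicate 1 (0.0841). That of Tlr6 as lower ended without KO replicate 2 or 3 or WT replicate 1 or 2 (adjusted p = 0.05 to 0.111). Of 8 interferon receptor and regulator genes, 4 fell, namely the feedback inhibitors Socs1 (-0.75 ± 0.09) and Socs3 (-0.71 ± 0.07) and the receptor chains Ifnar1 (-0.17 ± 0.03) and Ifnar2 (-0.14 ± 0.05). The call of Ifnar2 ended without KO replicate 1 (adjusted p = 0.111), KO replicate 3 (0.164), WT replicate 2 (0.0906) or WT replicate 3 (0.0729). Among 16 immediate early genes 7 fell and 1 rose, with Fos at 66.00, 65.1 and 65.5 CPM in KO and 97.9, 104 and 100.2 CPM in WT libraries (-0.62 ± 0.05) and Klf2 higher (0.31 ± 0.07).

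The machinery around endosomal TLRs moved both ways. Of 29 genes tested, 6 rose and 7 fell, Tlr7 among them (median -0.03), where 10.1% of all genes were called higher and 10.6% lower. Wdfy1, which encodes an adaptor that links TLR3 and TLR4 to TRIF, was at 94.6, 103 and 101 CPM in KO and 26.7, 30.1 and 30.1 CPM in WT libraries, with the KO values all more than those of WT and no overlap (1.78 ± 0.05, adjusted p = 1.11e-33). Tlr3, the double-stranded RNA receptor, was at 15.2, 16.5 and 16.3 CPM in KO and 23.1, 21.7 and 21.5 CPM in WT libraries (-0.46 ± 0.09, adjusted p = 1.61e-04). Unc93b1, which carries endosomal TLRs to their compartment, changed by -0.31 ± 0.03, the adaptor gene Myd88 by -0.22 ± 0.06, and Slc15a3, a lysosomal peptide transporter gene, by -0.27 ± 0.03. Arl8b, a GTPase that moves lysosomes, rose (0.32 ± 0.03), and Tlr13, the mouse sensor of bacterial ribosomal RNA, rose slightly (0.10 ± 0.03). The call of Myd88 ended without KO replicate 2 (adjusted p = 0.0585) or WT replicate 1 (0.0713), and that of Tlr13 without WT replicate 2 (0.167) or WT replicate 3 (0.0531). That of Cnpy3 as lower ended without any 1 of the KO replicates, WT replicate 1 or 3, or female KO replicate 1 (0.0618 to 0.168). That of Irak1 as higher ended without WT replicate 1 (0.0619) or 2 (0.1). Tlr9, the DNA receptor of the same family, was at -0.07 ± 0.17 and did not pass (adjusted p = 0.836).

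Lysosomal genes were higher in KO microglia. Of 41 lysosome and cathepsin genes tested, 34 rose and 2 fell, with a median of 0.19, so the changes were frequent and small. Ctsd, an aspartic protease, was at 9596, 9635 and 9476 CPM in KO and 6945, 7189 and 7168 CPM in WT libraries. Psap, the precursor of the sphingolipid activators, was at 21799, 21485 and 21402 CPM in KO and 18028, 17616 and 17873 CPM in WT libraries (0.27 ± 0.02, adjusted p = 2.72e-14). Each KO library of both genes exceeded each WT library. Atp6v0d2, a subunit of the proton pump, changed by 0.45 ± 0.03, Glb1, the lysosomal galactosidase, by 0.31 ± 0.04, and Ctsb, a cysteine protease, by 0.23 ± 0.02. Lower were Ctsc, an exopeptidase gene (-0.19 ± 0.03), and Npc2, a cholesterol carrier of the lysosome (-0.18 ± 0.06, adjusted p = 0.0444). The call of Npc2 ended in 6 of the alternative fits that leave out libraries, without each KO replicate in turn (adjusted p = 0.0869, 0.101 and 0.153), without WT replicate 1 (0.153) or 3 (0.113), and without female KO replicate 1 (0.0657). That of Ctsz as higher ended without KO replicate 1 (0.0883) or WT replicate 2 (0.199) or 3 (0.105). With Ttr and Pdgfra as covariates, 7 lysosomal genes passed as higher in place of 34, and with scaling by library totals alone 26 passed.

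Genes of disease-associated microglia, a state described around plaques and in demyelination, split in 2 directions, with 13 of 22 higher and 4 lower (median 0.17). Spp1, which encodes osteopontin, was at 20982, 21707 and 22021 CPM in KO and 15211, 15849 and 15895 CPM in WT libraries (0.46 ± 0.03, adjusted p = 5.23e-18). Gpnmb, a lysosomal glycoprotein gene, was at 25205, 24988 and 24490.0 CPM in KO and 20169, 19616 and 19976 CPM in WT libraries (0.32 ± 0.03). Trem2, a lipid receptor, was at 594, 601 and 616 CPM in KO and 498, 499 and 500.3 CPM in WT libraries, and Cd9, a tetraspanin gene, changed by 0.36 ± 0.03. These genes had no overlap between groups and all stood higher in KO. In the other direction, Axl, a receptor for bridged apoptotic cells, was at 93.2, 93.1 and 94.5 CPM in KO and 202, 189 and 191 CPM in WT libraries (-1.05 ± 0.04, adjusted p = 4.11e-28). Clec7a, a glucan receptor, was at 1798, 1837 and 1943 CPM in KO and 2518, 2381 and 2508 CPM in WT libraries (-0.41 ± 0.03), and Cst7, a cathepsin inhibitor, changed by -0.53 ± 0.06. Apoe was at 0.05 ± 0.02 and did not pass (adjusted p = 0.171), although its KO libraries lay above those of WT. With the covariates, 7 of the 13 higher calls were made.

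Of 14 lipid droplet and fatty acid genes, 10 rose and 2 fell (median 0.15). Mgll, the monoglyceride lipase, was at 71.5, 75.2 and 72.5 CPM in KO and 41.9, 42.9 and 47.05 CPM in WT libraries, without overlap (0.73 ± 0.06, adjusted p = 1.90e-14). The fatty acid carrier gene Fabp4 changed by 0.51 ± 0.04, the lysosomal lipase gene Lipa by 0.31 ± 0.03, and the droplet coat gene Plin2 by 0.12 ± 0.03. Hilpda, a lipase inhibitor gene, fell (-0.29 ± 0.05). With the covariates 2 of these genes passed as higher in place of 10, and with library totals alone 7 passed. Of 24 cholesterol biosynthesis genes 2 rose and 3 fell (median 0.00), with Dhcr7, the enzyme of the last step, at 59.03, 63.5 and 61.6 CPM in KO and 43.3, 40.6 and 44.9 CPM in WT libraries (0.52 ± 0.05). Of 18 genes of cholesterol efflux and the LXR receptors 4 rose and 1 fell, with the lipid transfer gene Pltp at 0.61 ± 0.14, and Abca1, the efflux transporter, at -0.17 ± 0.08, not called (adjusted p = 0.171). Beside these counts, 10.1% of all genes were called higher and 10.6% lower.

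Iron and heme genes rose in 6 of 14 and fell in 2 (median 0.10). Heph, a ferroxidase, was at 13.1, 10.2 and 10.7 CPM in KO and 5.59, 5.31 and 7.59 CPM in WT libraries (0.87 ± 0.15), the reductase gene Steap3 was at 0.38 ± 0.05, and the exporter gene Slc40a1 at -0.38 ± 0.05. Transcripts encoded by mitochondrial DNA rose in 8 of 12 and fell in none (median 0.30), with mt-Nd1, a complex I subunit, at 1928, 2009 and 2089.8 CPM in KO and 1633, 1568 and 1653 CPM in WT libraries (0.31 ± 0.05, adjusted p = 2.75e-04). They held 1.36 to 1.45% of the counts in KO and 1.18 to 1.24% in WT libraries. The 10 most abundant genes held 16.2 to 16.3% of counts in KO and 14.2 to 14.4% in WT libraries. The part of these shares in the result was not tested.

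Homeostatic microglia genes were divided, with 5 of 20 higher and 4 lower (median 0.01). For this list and those that follow, the shares over all genes were 10.1% called higher and 10.6% called lower. Fcrls, a mouse microglial Fc receptor-like gene, was at 58.2, 57.7 and 56.7 CPM in KO and 36.8, 44.3 and 37.8 CPM in WT libraries (0.54 ± 0.06), and Csf1r, the receptor that sustains microglia, at 832, 837 and 840.3 CPM in KO and 1009, 959.9 and 967 CPM in WT libraries (-0.23 ± 0.03). Sparc, a matrix protein gene that is also made by fibroblasts and other glia, was at 3.96, 2.91 and 4.18 CPM in KO and 15.7, 16.8 and 12.7 CPM in WT libraries (-2.02 ± 0.34). P2ry12 was at -0.15 ± 0.13 (adjusted p = 0.497) and Tmem119 at -0.00 ± 0.15 (adjusted p = 0.99), neither called. Complement genes rose in 6 and fell in 4 of 15 (median 0.07), with the inhibitor gene Cd59a at 9.22, 8.21 and 8.70 CPM in KO and 2.14, 2.69 and 4.20 CPM in WT libraries (1.52 ± 0.17), the receptor gene C5ar1 at -0.37 ± 0.03 and the central component C3 at -0.45 ± 0.08. Of 15 TAM and scavenger receptor genes and their ligands 4 rose and 2 fell, among them Gas6, the ligand of Axl, at 398, 399 and 404 CPM in KO and 286, 284 and 283 CPM in WT libraries (0.50 ± 0.03), so that ligand and receptor moved in opposite directions. Marco, a scavenger receptor, was higher (0.61 ± 0.07). Of 14 Fc and lectin receptor genes 2 rose and 5 fell, led by Fcgr1, the high-affinity IgG receptor, at 278, 267 and 248 CPM in KO and 479, 432 and 450.3 CPM in WT libraries (-0.78 ± 0.12). Some calls of these lists were weak. In fits that left out libraries, homeostatic calls ended for Sall1 (adjusted p up to 0.14), Gpr34 (0.177) and Tgfbr1 (0.0658). Complement calls ended for C2 (up to 0.196), Cr1l (0.129) and C1qc (0.14), and receptor calls for Cd300lf (0.169) and Clec4d (0.11).

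Among 20 oxidative defence genes 5 rose and 6 fell, with catalase (Cat) at 0.39 ± 0.05 and the superoxide dismutase gene Sod2 at -0.27 ± 0.04. Among 15 metalloproteinase and inhibitor genes 3 rose and 7 fell, with the inhibitor gene Timp2 at 724, 713 and 688 CPM in KO and 453, 460.0 and 467 CPM in WT libraries (0.62 ± 0.03) and the collagenase gene Mmp13 at -0.57 ± 0.08. Of 13 prostaglandin and leukotriene genes 3 rose and 3 fell, and the 2 enzymes that act in sequence to make prostaglandin E2, Ptgs2 (-1.25 ± 0.25) and Ptges (-0.998 ± 0.15), were both lower. Of 30 cell cycle genes 2 fell and none rose (median 0.02), of 16 unfolded protein response genes 2 rose and 3 fell, and of 12 heat shock genes 3 rose. Over all genes, 10.1% were called higher and 10.6% lower. The call of Ddit3 as lower ended without KO replicate 1 or 3, WT replicate 2 or 3, or female KO replicate 1 (adjusted p = 0.0604 to 0.261). That of Sdf2l1 as higher ended without KO replicate 1 or 2 or WT replicate 2 or 3 (0.0523 to 0.164). That of Hspd1 as higher ended without KO replicate 3 or WT replicate 1 or 2 (0.0606 to 0.0891).

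The largest rises among called genes of at least 10 CPM were those of Wdfy1 and the following. Mamdc2, a proteoglycan gene, was at 29.3, 25.9 and 31.3 CPM in KO and 9.75, 9.001 and 9.35 CPM in WT libraries (1.63 ± 0.09). Hpse, which encodes heparanase, was at 12.2, 12.8 and 14.3 CPM in KO and 4.87, 4.69 and 3.89 CPM in WT libraries (1.55 ± 0.14). Itgb3, an integrin chain of osteoclasts and platelets, was at 20.1, 20.04 and 21.5 CPM in KO and 6.69, 7.56 and 8.78 CPM in WT libraries (1.42 ± 0.11). In all of them the KO libraries stood clear of the WT libraries. The neuropeptide gene Npy changed by 1.377 ± 0.08, the elongation factor gene Eef1a2 by 1.23 ± 0.10, Scml4, a Polycomb-related gene, by 1.44 ± 0.15, the Ras GTPase activator gene Dab2ip by 1.16 ± 0.13, the calcium pump gene Atp2a3 by 1.15 ± 0.13 and the dynein light chain gene Dynlt1b by 1.03 ± 0.14.

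The largest falls after Tlr7 included genes of other cell types. Ttr, the thyroid hormone carrier of choroid plexus, was at 5.74, 13.2 and 10.5 CPM in KO and 199, 164 and 136 CPM in WT libraries (-4.06 ± 1.09, adjusted p = 0.0126). Enpp2, the lysophospholipase autotaxin of the same tissue, was at 4.17, 5.71 and 5.21 CPM in KO and 56.3, 53.3 and 48.2 CPM in WT libraries (-3.37 ± 1.03, adjusted p = 0.0279). Igfbp2, a growth factor carrier, was at 1.37, 1.72 and 1.62 CPM in KO and 12.7, 13.001 and 9.28 CPM in WT libraries (-2.88 ± 0.85, adjusted p = 0.0223), and Sulf1, an extracellular sulfatase gene, was at -4.09 ± 1.26 (adjusted p = 0.0285). The KO and WT libraries did not overlap in these genes, but the calls depended on single libraries. The call of Ttr ended without KO replicate 3 (adjusted p = 0.0506). The calls of Enpp2, Igfbp2 and Sulf1 each ended without any 1 of the 3 KO replicates or of WT replicates 1 and 2, with adjusted p-values of 0.0563 to 0.0886 for Enpp2, 0.0536 to 0.0743 for Igfbp2 and 0.0504 to 0.0922 for Sulf1.

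Of 9 choroid plexus and ependymal markers 3 were called lower (median -3.37), all 9 lay below WT in every library, and Ccdc153 was at 0. Fibroblast and mural markers fell in 6 of 6 genes, with sums of 5.59 to 7.65 CPM in KO and 16.4 to 38.8 CPM in WT libraries, and the collagen gene Col1a2 was at 0.547, 0.238 and 0.393 CPM in KO and 4.68, 6.69 and 4.64 CPM in WT libraries (-3.76 ± 0.72). Among the oligodendrocyte precursor markers, the receptor gene Pdgfra was at 7.99, 7.08 and 7.57 CPM in KO and 15.1, 17.6 and 13.4 CPM in WT libraries (-1.02 ± 0.12) and the proteoglycan gene Cspg4 was higher (0.43 ± 0.05). Astrocyte markers fell in 3 of 10, with sums of 34.4 to 37.6 CPM in KO and 45.4 to 51.9 CPM in WT libraries. Neuron markers fell in 2 of 5, with sums of 6.90 to 8.40 CPM in KO and 13.4 to 14.4 CPM in WT libraries. Sums of marker lists take in all listed genes, also those not tested. Beside the counts of markers, 10.1% of all genes were called higher and 10.6% lower. Tubb3, a neuron marker, lost its call as lower without KO replicate 3 (adjusted p = 0.0568) or WT replicate 3 (0.149). Sox10, a precursor marker, lost its own without WT replicate 2 (0.0805). The call of Col3a1 (-4.46 ± 1.39) ended without any 1 of the KO replicates or of WT replicates 1 and 2 (adjusted p = 0.0554 to 0.106), and it changed sign with the covariates (2.60, adjusted p = 0.691). The call of Col1a1 (-2.84 ± 0.76) ended without KO replicate 2 (adjusted p = 0.052), KO replicate 3 (0.052) or WT replicate 2 (0.0714). That of Dcn as lower ended without KO replicate 2 (0.0673), KO replicate 3 (0.123), WT replicate 1 (0.0998) or WT replicate 2 (0.112). Oligodendrocyte markers fell in 2 of 10, Cldn11 (-0.81 ± 0.27) and Cnp (-0.18 ± 0.05), with a median of -0.19. The call of Cldn11 ended without KO replicate 1 (adjusted p = 0.071), KO replicate 2 (0.15) or WT replicate 1 (0.129), and that of Cnp without KO replicate 2 (0.102) or WT replicate 3 (0.115). The list summed to 565 to 629.9 CPM in KO and 542 to 643 CPM in WT libraries, and Mbp, a main component of myelin, was at 0.05 ± 0.14 (adjusted p = 0.879). Of 7 border-associated macrophage markers 1 rose and 1 fell (median 0.07). They summed to 1224 to 1281 CPM in KO and 1522 to 1592 CPM in WT libraries, with Pf4 at 454, 450.0 and 465 CPM in KO and 738, 727 and 722 CPM in WT libraries (-0.68 ± 0.03) and the low-level F13a1 higher (0.96 ± 0.34), a call that ended without KO replicate 1 (adjusted p = 0.103), KO replicate 3 (0.119), WT replicate 1 (0.106) or WT replicate 2 (0.154). Mrc1, the mannose receptor, was at 0.07 ± 0.04 (adjusted p = 0.232). Endothelial markers summed to 60.9 to 62.3 CPM in KO and 52.7 to 58.8 CPM in WT libraries. Of 5 tested 1 rose, and Cldn5 and Emcn were at 0. Of 10 lymphocyte and neutrophil markers 8 were at 0, Cd3e and Ly6g among them. The only 1 tested, S100a8, was called higher in KO (0.73). The list summed to 6.63 to 7.79 CPM in KO and 3.39 to 6.19 CPM in WT libraries, without overlap.

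**Figure D4:**
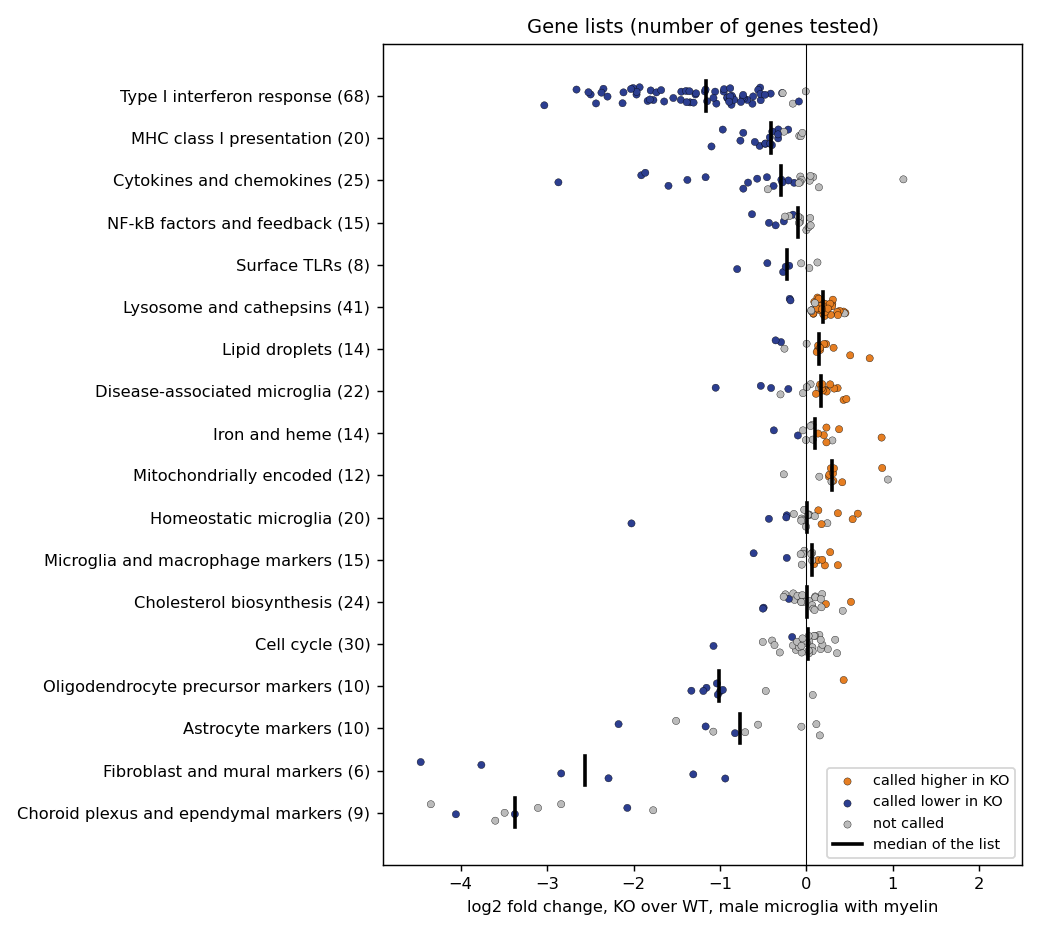
Log2 fold change of KO over WT for each tested gene (points) of the gene lists (rows), with the median of each list. The interferon list (median -1.16), MHC class I (-0.41) and the markers of choroid plexus (-3.37) lie to the left of 0, and the lysosome list (0.19) to the right.

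The KO effect in these male myelin cultures was set beside that in male cultures with DMSO, the vehicle, and in female cultures with myelin, none of which share libraries with it. The DMSO comparison called 3027 genes (20.9%) and the female comparison 1053 (7.28%). With male DMSO cultures, 1652 genes were called in the same direction, which is 55.3% of the 2987 genes called with myelin and 54.6% of those called with DMSO, and 37 in opposite directions. With female myelin cultures, 600 were called in the same direction, 20.1% of the male and 57.0% of the female calls, and 28 in opposite directions. All 3 comparisons called 455 genes in the same direction, 281 higher and 174 lower. Another 1155 genes were called in male myelin cultures alone, of which 219 were also called for a difference between the sexes and 77 for a difference between treatments. Over all genes those differences were called in 942 (6.51%) and 371 (2.56%). The 1155 genes were picked for not passing in the comparisons that enter these differences, so their counts are partly fixed by that choice.

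The interferon list was lower in 35 of 68 genes in male DMSO cultures (median -0.72) and in 4 of 68 in female myelin cultures (median -0.34), where 9.32% and 3.48% of all genes were called lower. Irf7 was at 14.9, 16.9 and 60.1 CPM in male KO and 64.1, 76.2 and 48.2 CPM in male WT libraries with DMSO, and at 120.1, 94.3 and 71.7 CPM in female KO and 145, 122 and 154 CPM in female WT libraries with myelin. Its log2 fold changes of -1.05 ± 0.39 and -0.56 ± 0.33 did not pass in these cultures (adjusted p = 0.068 and 0.406), and the tests of the difference of the effect did not pass either, with -1.44 ± 0.48 for male minus female (adjusted p = 0.087) and -0.96 ± 0.52 for myelin minus DMSO (adjusted p = 0.476). With DMSO, male KO library 3 (60.1 CPM of Irf7) lay far above the other male KO libraries and above male WT library 3 (48.2 CPM). No fit left that library out, and its part in the DMSO values and the treatment difference was not tested. The sex difference was called in 7 of 68 interferon genes, all more negative in males, namely Gbp5, Gbp2, Herc6, Irf1, Trim25, Irf5 and Mx1, where 3.51% of all genes were called in that direction. Without female KO replicate 1 of both treatments it was called in 2 of them, Herc6 and Irf5, and the list's median difference was -0.58 in place of -0.77. The treatment difference was called in Irf1 (-0.39 ± 0.12) and Trim25 (-0.29 ± 0.07), where 1.78% of all genes were called lower. Gbp5 had a KO effect of -2.13 ± 0.28 in male myelin and -0.59 ± 0.26 in female myelin cultures, a difference of -1.54 ± 0.39 (adjusted p = 0.0173), which did not pass without that replicate (-1.30, adjusted p = 0.0682).

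Lysosomal genes rose in 35 of 41 in male DMSO cultures (median 0.31) and in 12 of 41 in female myelin cultures (median 0.05), beside 11.6% and 3.8% of all genes. The sex difference was called in 21, all higher in males (3% of all genes), and the treatment difference in 13, all lower with myelin. Ctsd was at 8109, 8377 and 8460.3 CPM in female KO and 7131, 7554 and 7195 CPM in female WT libraries (0.19 ± 0.02), and its effect differed between the sexes by 0.24 ± 0.03 (adjusted p = 8.84e-07). Trem2 differed by 0.16 ± 0.04 (adjusted p = 0.00319). Of 25 cytokine genes 9 fell and 5 rose in male DMSO cultures, 9 fell and 4 rose in female myelin cultures, and the sex difference was called lower in 11 and higher in 1. Csf1 was lower in male KO microglia with myelin, but higher in male KO with DMSO (0.14 ± 0.04) and in female KO with myelin (0.19 ± 0.04), and the differences passed for sex (-0.40 ± 0.05, adjusted p = 1.23e-06) and for treatment (-0.35 ± 0.05, adjusted p = 1.33e-05). The NF-kB list was lower in 0 and higher in 4 of 15 genes in male DMSO cultures, and the treatment difference was called lower in 4. Cholesterol biosynthesis genes rose in 13 of 24 in male DMSO cultures and the treatment difference was called lower in 6, while cell cycle genes fell in 17 of 30 with DMSO and the treatment difference was called higher in 6 (0.788% of all genes).

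Mitochondrially encoded transcripts rose in 8 of 12 in female myelin cultures (median 0.44) and in 0 of 12 in male DMSO cultures (median 0.04). The sex difference was called in 0 of 12 and the treatment difference in 1 of 12. Wdfy1 rose in all 3 comparisons (1.78 ± 0.05 in male myelin, 2.0 ± 0.06 in male DMSO and 1.84 ± 0.05 in female myelin cultures), and its differences were -0.06 ± 0.08 between sexes (adjusted p = 0.752) and -0.22 ± 0.08 between treatments (adjusted p = 0.144). Mid1 was at -2.47 ± 0.23 in male DMSO and -3.47 ± 0.20 in female myelin cultures, with a sex difference of 0.04 ± 0.35 (adjusted p = 0.97). Choroid plexus markers summed to 57.4 to 629.7 CPM in female KO and 117 to 275 CPM in female WT libraries with myelin, so the female groups overlapped where the male groups did not, and their part in the sex difference was not tested.

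**Figure D5:**
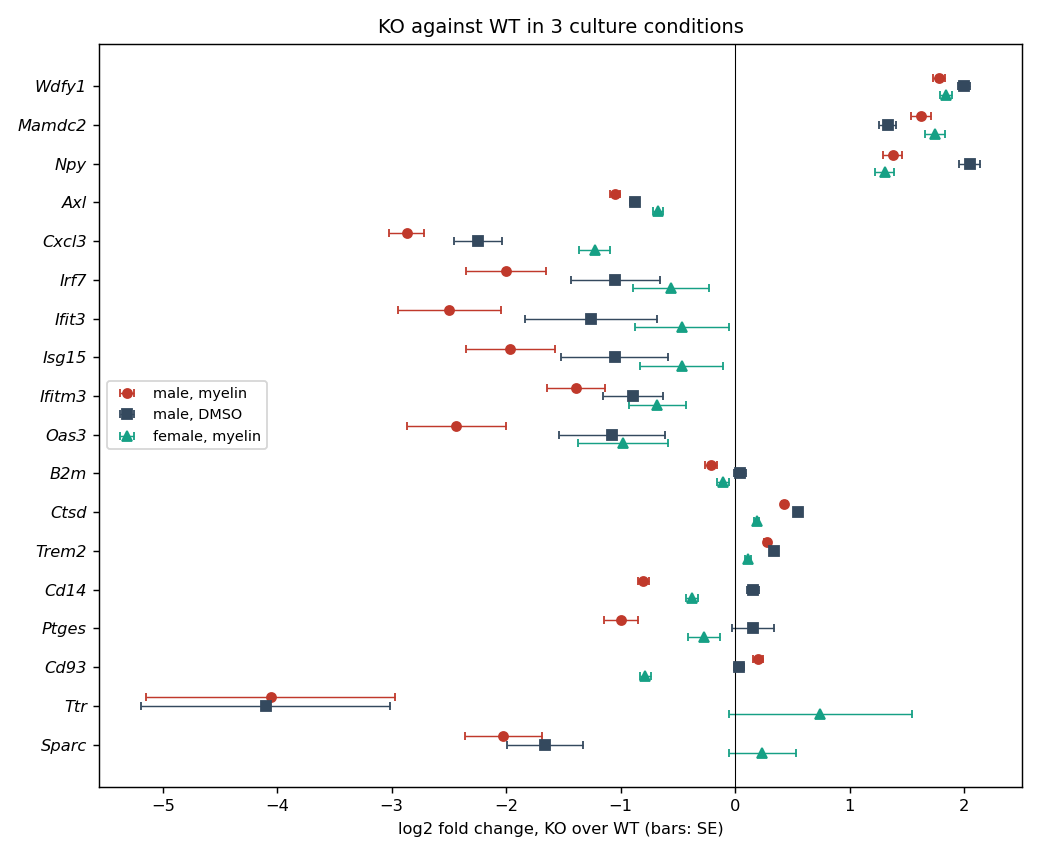
Log2 fold change of KO over WT (x axis, lines are SE) of 18 genes (y axis) in male myelin (circles), male DMSO (squares) and female myelin cultures (triangles), from 3 against 3 libraries each. Interferon genes such as Irf7 lay farthest below 0 in male myelin cultures (-2.01, -1.05 and -0.56), while Wdfy1 lay between 1.78 and 2.0 in all 3.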

How the data were processed

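The authors deposited raw counts per gene, as whole numbers without scaling, for the microglia experiment. Per the submitters' processing notes, the builds named are GRCm38 and mm10, and the tool named is DESeq2 1.38.3. The aligner and the counting program with its strand setting are not given in these notes. Coordinates of 96.3% of 14457 shared tested genes equalled GENCODE M21. The 24 microglia libraries were matched to 8 groups of 3 by their labels.

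The analysis used edgeR 4.0.16 and limma 3.58.1 under R 4.3.3. After filterByExpr and TMM scaling (a trimmed mean of log ratios between libraries), 1 mean per group was fitted with robust quasi-likelihood dispersions over all 24 libraries. Contrasts were 2-sided, adjusted by Benjamini-Hochberg over all 14468 genes and called under 0.05. Levels are CPM with TMM scaling, fold changes are log2 values and SE was taken from the F statistic. The fit was tested on simulated data. Total counts of 15.28 to 21.28 M put 3 counts at 0.147 to 0.205 CPM in the 6 libraries. No replicates agreed within sampling noise.

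Members and lists were chosen with earlier results of these data known. Named were 13 fixed genes, up to 10 called genes in each direction without overlap of the groups and with 10 CPM or more, up to 3 per list and direction, called genes within 10 Mb of Tlr7, and up to 6 per direction for each difference of effects. Other list members were named after their values had been seen. Alternatives were RLE scaling, library totals alone, other filters, DESeq2 1.42.0, limma-voom, a fit of the groups compared only, the replicate block, Ttr and Pdgfra as covariates, and leaving out single libraries. The fit without female KO replicate 1 was added after seeing the data. A few genes are not reported here by name.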

Additional observations from a re-analysis of the deposited data

Results flagged for a closer look

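A test of the difference between the KO effect in male and in female myelin cultures picked out the following named genes, given as male minus female effect on the log2 scale. It was negative for the choroid plexus gene Ttr (-4.80), the matrix gene Sparc (-2.26), the growth factor carrier Igfbp2 (-3.68) and the Y-linked genes Ddx3y (-2.96), Eif2s3y (-3.83) and Uty (-4.44). It was positive for Xist (3.73), the phagocyte receptor gene Cd93 (0.98), the elastin-associated gene Emilin1 (0.92), Ldlrad3, a receptor gene (0.92), and Vash2, a tubulin carboxypeptidase gene (0.86). Cd93 was at 94.1, 96.9 and 96.2 CPM in male KO and 83.5, 85.4 and 81.1 CPM in male WT libraries, and at 61.01, 62.5 and 72.4 CPM in female KO and 111, 114 and 112 CPM in female WT libraries. Ddx3y was at 0.349, 0.398 and 0.300 CPM in female KO and 0, 0 and 0.125 CPM in female WT libraries, and fitted values against such low levels are not bounds. Ttr was at 459, 41.7 and 183 CPM in female KO libraries and 203, 81.9 and 121 CPM in female WT libraries. Without female KO replicate 1 of both treatments, Ttr was at -3.76 and Cd93 at 0.96, and the difference of Uty no longer passed (-4.03, adjusted p = 0.125). The genes whose sex difference is given with the results also passed, with Csf1 at -0.40, Ctsd at 0.24, Gbp5 at -1.54, Irf1 at -0.43, Trem2 at 0.16 and Trim25 at -0.32. Without that replicate Csf1, Ctsd and Trem2 still passed, while Gbp5 (-1.30, adjusted p = 0.0682), Irf1 (-0.38, adjusted p = 0.0563) and Trim25 (-0.28, adjusted p = 0.0555) did not. Of 183 named genes 75 were called for this difference, against 6.51% of all genes. That count is partly set by the choice of names. Some genes were named because they were called for this difference, and others because they were called for the male KO effect.

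A test of the difference between the KO effect with myelin and with DMSO in males picked out another 12, given as myelin minus DMSO. It was negative for the co-receptor gene Cd14 (-0.96), the prostaglandin E synthase gene Ptges (-1.15), the cytochrome gene Cyp1b1 (-0.86), the receptor genes Gprc5b (-0.94) and Slamf7 (-0.93), and H2-Q6 (-1.02). It was positive for the lysophosphatidylserine receptor gene Gpr34 (0.88), Uhrf1, which maintains DNA methylation (0.90), Racgap1, needed for cytokinesis (0.70), the amino acid transporter gene Slc36a2 (0.75), Lrrc20 (0.71) and the mRNA export gene Sarnp (1.44). Cd14 was at 139, 134 and 139 CPM in KO and 254, 230.5 and 236 CPM in WT libraries with myelin, and at 291, 288 and 277 CPM in KO and 253, 268 and 247 CPM in WT libraries with DMSO. It was also negative for Csf1 (-0.35), Ctsd (-0.12), Irf1 (-0.39) and Trim25 (-0.29). Of 183 named genes 38 were called for this difference, against 2.56% of all genes, and this count is partly set by the choice of names in the same way.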

How the results depend on the processing

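With the levels of Ttr and Pdgfra as covariates, 348 genes were called in place of 2987 (175 higher and 173 lower), 55 in place of 942 for the sex difference, and among list genes 3 of the interferon, 7 of the lysosome, 9 of the cytokine, 0 of the MHC class I, 7 of the disease-associated and 2 of the lipid droplet calls were made. In that fit 14 named genes changed sign, with Cldn11 at 0.19, Col3a1 at 2.60, Enpp2 at 0.45, Foxj1 at 0.13, Gm15247 at 0.42, Gpm6b at 0.025, Hpgd at -0.047, Hspd1 at -0.054, Igfbp2 at 0.64, Lta4h at -0.027, Slc1a2 at 0.12, Sulf1 at 0.58, Timp1 at 0.28 and Timp3 at 0.080. Scaling by library totals alone gave 877 higher and 2322 lower genes, with 26 lysosome and 7 lipid droplet genes called higher. The cause was not tested in either case. Leaving out each replicate of the 2 groups in turn gave 2379 to 2640 calls (1153 to 1399 higher, 1078 to 1304 lower), 688 to 891 for the sex difference, 271 to 339 for the treatment difference, 59 to 63 interferon, 32 to 34 lysosome, 15 cytokine, 15 to 16 MHC class I, 13 to 14 disease-associated and 9 to 10 lipid droplet calls. Without female KO replicate 1, 3439 genes were called, 805 for the sex difference and 475 for the treatment difference. DESeq2 called 2833, limma-voom 2872, RLE scaling 3066, no filter on low counts 3115, genes of at least 5 CPM 2439 and the fit of the groups compared only 3229. The replicate numbers are taken as names only, since deviations of same-numbered KO and WT libraries had correlations of 0.0764, -0.00045 and 0.0614 across 8328 genes and not every library correlated best with its own number. With the replicate number as a block 3132 genes were called and all 183 named genes kept their direction and call, and a block within sex and genotype, which can be estimated for the treatment difference only, gave 476 calls. Of 2907 values of named genes under the alternatives, 2632 kept direction and call, 259 lost the call, 2 gained it and 14 changed sign. At these depths genes near 3 counts per library carry no reliable fold change.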

Other observations

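The share of tested genes called for the KO effect in male myelin cultures was 18.2 to 24.3% on each of the autosomes and 21.2% on the X chromosome. The autosomes at the ends of that range were chromosome 17 (131 of 718 genes) and chromosome 1 (213 of 877 genes). Among genes outside the lists, the noncoding gene Gm42031 (ENSMUSG00000110386, GRCm38, chr8:85125872-85132289, minus strand) was detected in KO libraries and nearly absent from WT libraries. It was at 5.40, 5.17 and 4.52 CPM in male KO libraries with myelin, against 0 in the 3 male WT libraries, where 3 counts correspond to 0.188 to 0.195 CPM. It was at 6.98, 6.08 and 6.43 CPM in female KO and 0 in female WT libraries with myelin, and at 5.95, 5.46 and 6.46 CPM in male KO and 0, 0.0619 and 0 CPM in male WT libraries with DMSO. Together with Wdfy1, Mamdc2 and Npy it was called higher in KO in each of these 3 comparisons. It was chosen after its values were seen.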
